A study of Mus musculus with 2 samples.

Results

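Leukocytes leave the blood through a sequence of contacts with the vessel wall. Selectins on endothelial cells bind glycosylated ligands such as PSGL-1 and CD44 and let leukocytes roll, and integrins of the leukocyte then bind ICAM-1 and VCAM-1 and hold the cell in place. Inflamed venules are the classical site of this sequence. The 9 genes described here encode its main parts. The endothelial side was *Selp* (P-selectin), *Sele* (E-selectin), *Icam1* (ICAM-1) and *Vcam1* (VCAM-1). The leukocyte side was *Selplg* (PSGL-1), *Itgal* (the alpha subunit of LFA-1), *Itgam* (the alpha subunit of Mac-1), *Itgb2* (the beta subunit that both integrins share) and *Cd44*. They were taken by symbol, and all 9 were found once among the 31053 genes of the count matrices.

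Single-cell RNA sequencing covered periodontal tissue of C57BL/6 wild-type mice aged 8 weeks. One library came from untreated mice (control) and 1 from mice with ligature-induced periodontitis (LIP), taken 7 days after the ligature was placed, a model of gum inflammation with loss of the bone around the teeth. Each library pooled 5 mice, so each group was 1 sample. No difference between the groups could be tested, and no p-value was computed. Cells carried unique molecular identifiers (UMIs), each of which stands for 1 captured transcript. Levels are UMIs of a gene per 1000000 UMIs of the cells summed (CPM). Intervals are 95% intervals, Poisson for levels, exact binomial for shares of cells and exact conditional for ratios. They cover counting error only, not the spread between mice. Those for levels and ratios also leave out the spread between cells.

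The LIP library kept 936 of 1212 barcodes and the control library 883 of 1169, with a median of 5595 and 10845 UMIs per cell. The 2 libraries shared 2 barcodes in all and 1 among the kept cells. Cells were clustered without the 9 genes and named "-like" from marker genes. The vascular endothelial-like class held 79 LIP and 48 control cells, at medians of 8504 and 5784.5 UMIs. Its markers summed to 10618 CPM in LIP and 11011 CPM in control. The neutrophil-like class held 326 and 53 cells, the macrophage-like class 76 and 38, the T-like class 27 and 51, and the B-like class 19 and 151. RNA of other cells was read in the same class from marker lists. The 11 neutrophil markers summed to 318 CPM in LIP vascular endothelial-like cells, with 10 of them found and *Mmp9* at 0, against 139 CPM in control, with 4 found and *Csf3r*, *Cxcr2*, *Ly6g* and *Mmp9* among those at 0. In epithelial-like cells they summed to 723 and 142 CPM, with *Ly6g* and *Mmp8* at 0 in LIP and *Ly6g* at 0 in control. Their part in the results was not tested.

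The upstream sequences of the 3 endothelial genes with an entry in RefSeq are shown because these genes were found together in the same cells. Entries matched 5 of the 9 genes. The 250 bases before the annotated start are given 5′ to 3′ on the coding strand (GRCm38.p6), and capitals mark matches on either strand to GGNNNTTCC, a loose form of the site bound by NF-kappaB.
*Selp*, chr1:164115014-164115263, plus strand: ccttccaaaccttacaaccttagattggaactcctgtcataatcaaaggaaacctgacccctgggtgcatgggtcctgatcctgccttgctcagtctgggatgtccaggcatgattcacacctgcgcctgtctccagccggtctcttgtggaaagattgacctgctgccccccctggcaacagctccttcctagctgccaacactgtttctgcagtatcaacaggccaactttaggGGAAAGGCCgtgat
*Sele*, chr1:164047984-164048233, plus strand: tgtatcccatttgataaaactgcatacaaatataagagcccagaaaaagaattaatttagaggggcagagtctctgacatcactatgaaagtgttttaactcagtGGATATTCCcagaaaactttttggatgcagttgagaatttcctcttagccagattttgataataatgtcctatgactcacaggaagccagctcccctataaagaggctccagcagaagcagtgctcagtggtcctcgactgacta
*Icam1*, chr9:21015690-21015939, plus strand: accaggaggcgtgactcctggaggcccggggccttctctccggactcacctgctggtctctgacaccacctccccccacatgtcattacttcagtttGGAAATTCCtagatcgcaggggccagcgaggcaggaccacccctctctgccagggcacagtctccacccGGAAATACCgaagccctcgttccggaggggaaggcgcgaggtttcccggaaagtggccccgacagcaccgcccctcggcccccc
The motif matched at 1 position before *Selp*, 1 before *Sele* and 2 before *Icam1*. It matched at least once in 5144 of 32851 promoters of this length (15.7%). A second pattern, TTCNNNGAA, the palindromic form bound by STAT proteins, matched once before *Sele*, where it overlapped the NF-kappaB match, and once before *Icam1*, and it was present in 7.02% of the promoters. Neither pattern was found before *Itgam* or *Cd44*. The patterns were chosen after the values of these genes had been seen, and a match is a run of letters, not a bound site.

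The selectin genes were the most restricted of the 9. Of all *Selp* UMIs in kept cells, 93.9% in LIP and 89.6% in control lay in vascular endothelial-like cells, as did 96.4% and 98.0% of all *Sele* UMIs. *Selp* in epithelial-like cells, which should lack it, was 1.93 CPM in LIP and 0 of 229 cells in control, at median depths of 29357 and 29490 UMIs. *Selp* in neutrophil-like cells was 14.2 CPM in LIP, on 23 UMIs in 17 of 326 cells, and 15 CPM in control, on 7 UMIs in 7 of 53. In LIP epithelial-like cells 5 UMIs lay in 5 of 86 cells. Neutrophil-like cells were far shallower, at medians of 3855 and 6494 UMIs, so the CPM values of the 2 classes are not at like depth. Whether *Selp* in neutrophil-like cells lay above RNA of other cells was not tested. *Icam1* was spread over more classes. Neutrophil-like cells held 34.6% of its UMIs in LIP, macrophage-like cells 28.2% and vascular endothelial-like cells 17.9%, against 3.62%, 25.3% and 6.87% in control. Of the 553 control UMIs, osteogenic-like cells held 105, lymphatic endothelial-like cells 77 and T-like cells 48, each above the 38 of vascular endothelial-like cells. Such shares also follow the number of cells in a class, which differed between libraries. *Vcam1* divided mainly between vascular endothelial-like cells (46.1% in LIP, 40.4% in control) and osteogenic-like cells (28.1% and 30.5%). *Selplg*, *Itgb2*, *Itgam* and *Itgal* lay at 0 to 2.30 CPM in vascular endothelial-like cells of either library. A gene at 0 UMIs there allowed up to 3.45 CPM in LIP and 8.69 CPM in control. *Cd44* was read in every class with at least 20 cells in each library, vascular endothelial-like cells included.

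**Figure D1:**
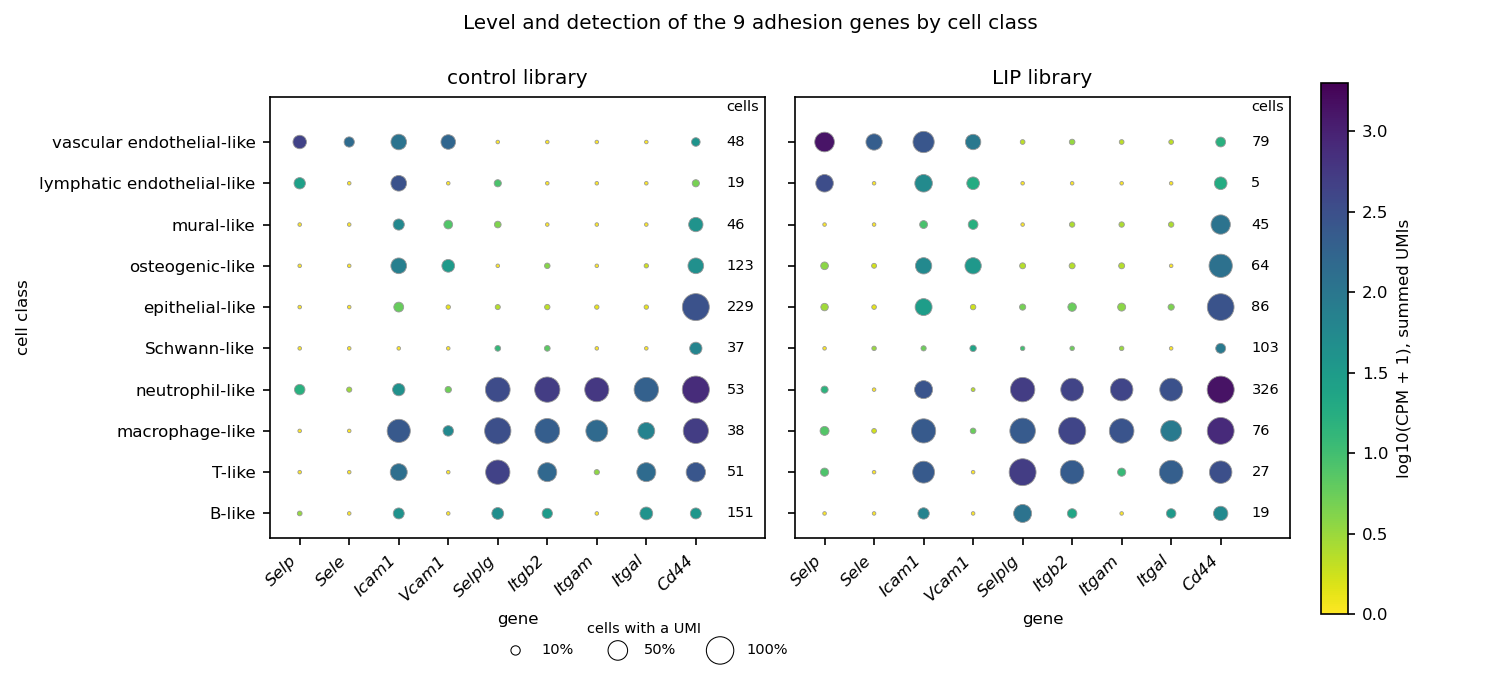
Each circle is 1 gene (horizontal axis) in 1 cell class (vertical axis), control library left and LIP library right; colour is log10(CPM + 1) of summed UMIs, area grows with the percent of cells with a UMI, and the column at the right of each panel counts cells. The selectins sit in the vascular endothelial-like row, and *Icam1* and *Cd44* in most rows. The leukocyte genes sit in the neutrophil-, macrophage- and T-like rows, except that *Itgam* had only 3 LIP and 1 control UMIs in T-like cells.

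P-selectin is stored in endothelial granules and brought to the surface within minutes of stimulation, and its gene is also induced. *Selp* (ENSMUSG00000026580, GRCm38 chr1:164115264-164150026) stood at 1340 CPM (1264 to 1420) in LIP vascular endothelial-like cells and 449 CPM (381 to 526) in control. It was found in 40 of 79 and 11 of 48 cells, with medians of 8.00 and 3.00 UMIs per cell that had it. The log2 ratio of LIP over control was 1.58 (1.33 to 1.83). A single control cell held 117 of the 155 control UMIs (75.5%), and a single LIP cell 233 of 1164 (20%). Without these cells the levels were 1091 and 118 CPM and the log2 ratio 3.20 (2.74 to 3.71). With every cell thinned to 1000 UMIs, *Selp* was found in 32.5% (22.2 to 44.1) of LIP and 13.6% (5.17 to 27.4) of control cells, and 2 and 4 cells were too shallow to enter.

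E-selectin is made by endothelium upon cytokine stimulation and lets leukocytes roll more slowly, and its ligands include PSGL-1 and CD44. *Sele* (ENSMUSG00000026582) lies 57.6 kb before *Selp*, at chr1:164048234-164057677. Its level was 214 CPM (185 to 247) in LIP, in 27 of 79 cells, and 142 CPM (105 to 188) in control, in 6 of 48 cells. The log2 ratio of 0.59 (0.13 to 1.08) rested on the same control cell, which held 41 of the 49 control UMIs (83.7%). Without the top cell of each library 8 control UMIs remained, the levels were 180 and 24.9 CPM, and the log2 ratio was 2.85 (1.84 to 4.09). Thinned shares of *Sele* were 10.4% (4.59 to 19.4) and 6.82% (1.43 to 18.7), with intervals that overlapped.

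*Icam1* (ENSMUSG00000037405, chr9:21015985-21028817) encodes the endothelial ligand of LFA-1 and Mac-1. It stood at 264 CPM (231 to 300) in LIP and 110 CPM (77.9 to 151) in control vascular endothelial-like cells, in 47 and 15 cells. The log2 ratio was 1.26 (0.76 to 1.80), and 1.19 (0.63 to 1.78) without the top cells, so it did not rest on those cells. When each library was clustered on its own, without integration, the ratio was 0.41 (0.08 to 0.74), which is not past 2-fold. Vascular and lymphatic endothelial cells then formed 1 class of 84 LIP and 65 control cells. With integration, lymphatic endothelial-like cells held 3 *Icam1* UMIs in LIP and 77 in control, or 16 without the top control cell. Thinned shares of *Icam1* in vascular endothelial-like cells were 27.3% (17.7 to 38.6) in LIP and 9.09% (2.53 to 21.7) in control. *Vcam1* (ENSMUSG00000027962, chr3:116109949-116129688), which encodes the ligand of the integrin VLA-4, went the other way. It stood at 94.4 CPM (75.1 to 117) in LIP, in 24 cells, and 165 CPM (125 to 214) in control, in 13 cells, a log2 ratio of -0.81 (-1.31 to -0.29). Without the top cells the ratio was -0.55 and its interval (-1.14 to 0.06) included 0, and without integration it was -0.04 (-0.54 to 0.48).

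Of the 9 genes, 5 had at least 20 UMIs over both libraries in vascular endothelial-like cells. *Selp* and *Icam1* were past 2-fold higher in LIP, where 8.04% of the 7213 genes with that many UMIs were. *Cd44* was past 2-fold lower (5.42% of genes were) on 13 UMIs in each library, 15 against 37.7 CPM, and 13.5% of genes were past 2-fold in either direction. The median log2 ratio over the 5 genes was 0.59, and over all genes tested it was 0.03.

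**Figure D2:**
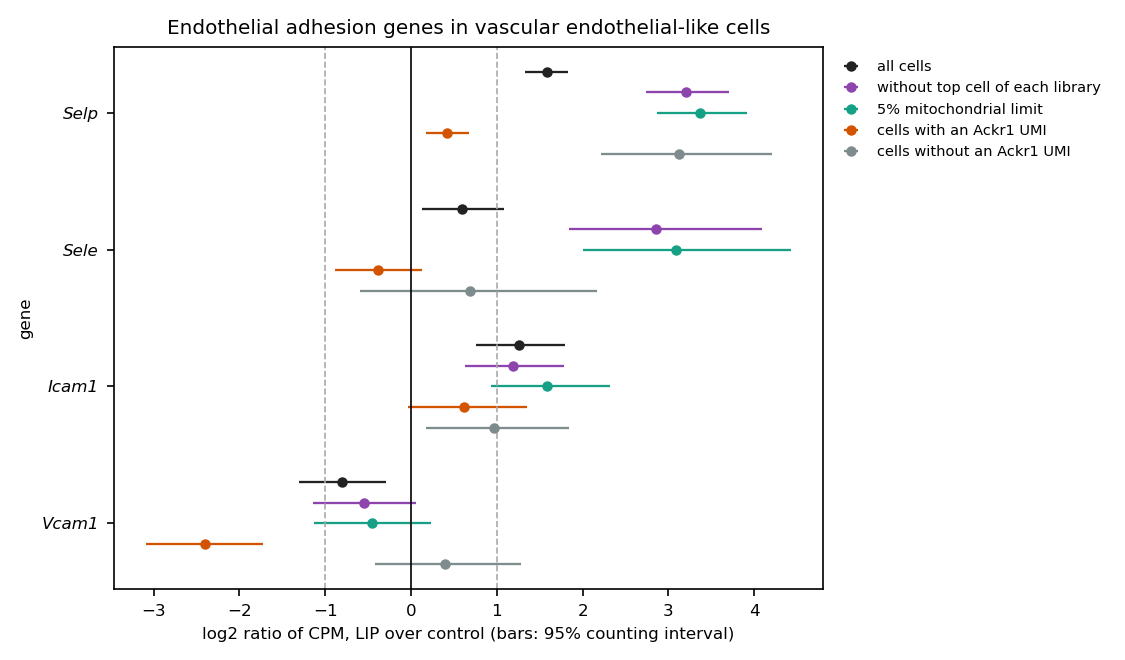
Log2 ratio of CPM, LIP over control (horizontal axis), of 4 genes (vertical axis) in vascular endothelial-like cells; points are ratios, bars 95% counting intervals, dashed lines 2-fold, colours the cells that entered (all, without the top cell of each library, a mitochondrial limit of 5%, with or without an *Ackr1* UMI). *Selp* moves from 1.58 to 3.20 and *Sele* from 0.59 to 2.85 when the top cell of each library is left out, while *Icam1* lies between 0.62 and 1.59 in the 5 settings drawn.

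*Ackr1* encodes the atypical chemokine receptor that marks venular endothelium, and it was used to divide the class. It was found in 26 of 79 LIP cells and 8 of 48 control cells, at 335 and 151 CPM over the class. *Selp* stood at 2818 CPM in LIP cells with an *Ackr1* UMI and 316 CPM in those without, and at 2103 and 36.2 CPM in control. *Sele* stood at 464 and 41.0 CPM in LIP and at 609 and 25.3 CPM in control. The log2 ratios of found over not found were 3.16 and 3.50 in LIP and 5.86 and 4.59 in control. Without the control cell that held most *Selp*, the ratio in control was 4.11 (3.03 to 5.32) for *Selp* and -0.18 (-5.68 to 2.78) for *Sele*, which then had 1 UMI in 7 cells with *Ackr1* and 7 UMIs in 40 without. *Selp* thus lay mainly in cells with *Ackr1* in both libraries, and *Sele* in LIP. *Icam1* showed the smaller ratios of 1.96 and 2.31. *Vcam1* differed between libraries in this respect. It stood at 566 CPM in control cells with *Ackr1* and 65.2 CPM in those without (log2 ratio 3.12), against 107 and 85.8 CPM in LIP (0.32). An *Ackr1* UMI is easier to find in a deep cell, and median depths were 10123.5 UMIs with it and 7913.0 without it in LIP.

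Set against each other within these subsets, the libraries gave other ratios than over the whole class. In cells with *Ackr1* the log2 ratio of LIP over control was 0.42 (0.17 to 0.68) for *Selp*, -0.39 (-0.89 to 0.13) for *Sele*, 0.62 (-0.03 to 1.35) for *Icam1* and -2.40 (-3.09 to -1.72) for *Vcam1*. The 8 control cells include the one with most selectin UMIs, and without the top cells the first 2 values were 1.85 (1.31 to 2.45) and 4.14 (1.64 to 9.46), *Icam1* was then 0.24 (-0.56 to 1.15) and *Vcam1* -2.45 (-3.35 to -1.54). In cells without *Ackr1* the log2 ratio was 3.12 (2.21 to 4.21) for *Selp* and 0.97 (0.18 to 1.84) for *Icam1*. Without the top cells these were 2.51 (1.31 to 4.01) and 0.73 (-0.20 to 1.76), 1 LIP cell holding 100 of 162 *Selp* UMIs. For *Vcam1* there it was 0.40 (-0.42 to 1.28). The lower *Vcam1* in LIP was read in the cells with *Ackr1*, of which control had 8.

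The genes also overlapped cell by cell. Of the 27 LIP cells with *Sele*, 25 also had *Selp*, and of the 39 cells without *Selp* 2 had *Sele*. In control, 4 of the 6 cells with *Sele* had *Selp*. *Selp* and *Icam1* were found together in 32 LIP cells (40.5%, 29.6 to 52.1) and 5 control cells (10.4%, 3.47 to 22.7). All 4 genes were found in 12 LIP cells (15.2%) and 1 control cell (2.08%), and at least 1 of the 4 in 61 (77.2%) and 27 (56.2%). LIP cells of this class were deeper than control cells. After thinning to 1000 UMIs, *Selp* and *Icam1* were found together in 11 of 77 LIP cells (14.3%, 7.35 to 24.1) and 2 of 44 control cells (4.55%, 0.555 to 15.5), with intervals that overlapped. All 4 genes were then found together in 0 of 77 and 0 of 44 cells, which allows shares of up to 3.90% and 6.82%, so a difference was not detectable at that depth. Of the 79 LIP cells, 12 carried at least 3 endothelial and at least 3 leukocyte markers of 1 kind, against none of the 48 control cells. Without them the log2 ratios were 1.61 for *Selp*, 0.52 for *Sele*, 1.36 for *Icam1* and -0.61 for *Vcam1*.

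**Figure D3:**
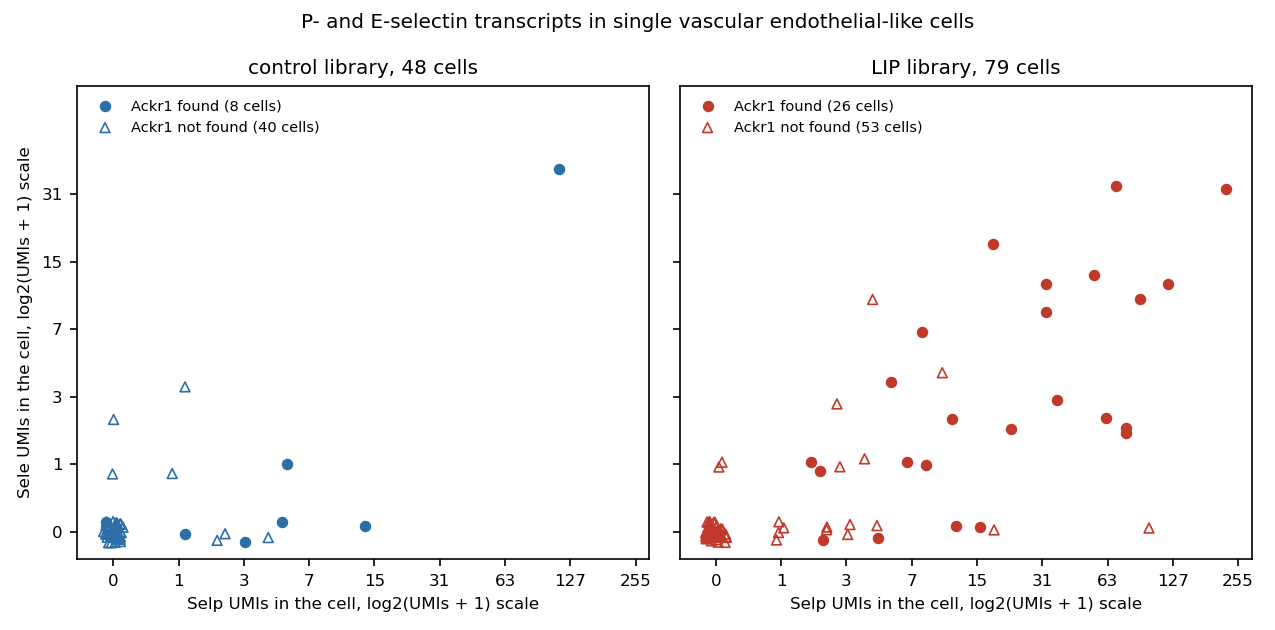
Each point is 1 vascular endothelial-like cell, with *Selp* UMIs on the horizontal and *Sele* UMIs on the vertical axis, both on a log2(UMIs + 1) scale with small random offsets; filled circles are cells with an *Ackr1* UMI and open triangles cells without. The filled circles of LIP reach 233 *Selp* and 34 *Sele* UMIs, and 2 of the 26 have neither, while 1 control cell, with 117 *Selp* and 41 *Sele* UMIs, stands far from the other 47.

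Genes of vessel types were counted in the same class, where 8.04% of all genes were past 2-fold higher, 5.42% lower, and the median log2 ratio was 0.03. Of 5 venular genes tested, *Ackr1* (log2 ratio 1.15, 0.72 to 1.61) and *Lrg1* (1.67, 1.37 to 1.98), a secreted glycoprotein of inflamed vessels, were past 2-fold higher in LIP, and *Nr2f2*, which encodes the transcription factor of venous identity, was not (0.06, -0.33 to 0.46). *Vwf*, the gene of von Willebrand factor, was lower within 2-fold (-0.33, -0.56 to -0.10). Of 5 capillary genes, 4 were past 2-fold lower. *Cd36*, a fatty acid transporter, stood at 111 CPM against 661 CPM (-2.58, -2.94 to -2.23), and *Gpihbp1*, which anchors lipoprotein lipase to capillaries, at 111 against 467 CPM (-2.08, -2.46 to -1.70). Of 7 arterial genes, *Gja5* and *Fbln5* were past 2-fold higher, and *Sox17*, an arterial transcription factor gene, was lower within 2-fold (-0.80, -1.09 to -0.51). *Gja5* had 106 and 9 UMIs, so it reached the minimum of 20 UMIs through LIP. All 3 tip cell genes with at least 20 UMIs were past 2-fold higher. *Esm1* had 64 and 7 UMIs, *Apln* 22 and 1 and *Kcne3* 23 and 3, so all 3 reached that minimum through LIP. LIP held 868412 UMIs of this class and control 345104. *Apln* and *Kcne3* were each found in 5 LIP cells and 1 control cell. *Kcne3* had an interval that included 0 (1.61, -0.12 to 3.99). *Angpt2*, also listed, was under the minimum with 15 and 4 UMIs (0.58, -1.07 to 2.62). The median log2 ratio, with counts under 3 UMIs set to 3, was 0.26 over the venular and -1.38 over the capillary genes. It was -0.08 over the arterial genes and 1.61 over the 3 tip cell genes that reached the minimum. In these summed values more cells of a kind and more transcripts per cell cannot be told apart, and their part in the selectin ratios was not tested.

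Other genes of adhesion were counted from lists in the same class, where 8.04% of all genes were past 2-fold higher and 5.42% lower. *Glycam1*, which encodes a mucin-like protein typical of high endothelial venules, had 145 UMIs in 4 LIP cells and 0 in control, a log2 ratio of at least 4.26 with 3 UMIs as the floor. Of 5 leukocyte integrin subunits tested, *Itgb3* (2.44, 0.79 to 4.78) and *Itga5* (1.80, 1.11 to 2.56) were past 2-fold higher. *Itgb3* rested on 41 UMIs in LIP and 3 in control. Both genes encode subunits that pair with others as receptors for matrix proteins. Among 2 ligand genes *Fn1* (1.43, 0.97 to 1.93), the gene of the matrix protein fibronectin, was past 2-fold higher. *Mcam*, a junction adhesion molecule, was higher (1.30, 0.90 to 1.72) among 8 counter-receptor and junction genes, where *Icam2*, the constitutive endothelial ligand of LFA-1, was not (0.20, -0.14 to 0.56). *Cd24a* was lower (-1.28, -2.06 to -0.51) among 6 selectin system genes, and *Rasgrp2* was lower (-1.82, -2.88 to -0.79) among 4 integrin activation genes. None of 5 genes of selectin ligand modification (glycosyltransferases and sulfotransferases) was past 2-fold.

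*Icam1* and *Vcam1* were also read outside the endothelium. In mural-like cells *Icam1* stood at 7.81 CPM in LIP and 55.8 CPM in control (log2 ratio -2.84, -4.55 to -1.47), on 5 and 33 UMIs. *Cd44* in the same class stood at 108 and 38.9 CPM (1.47, 0.77 to 2.22), so 1 of the 2 genes tested was past 2-fold higher (5.78% of genes were) and 1 lower (4.91%, and 10.7% in either direction). The lower *Icam1* was past counting error in the pericyte part of the class led by *Rgs5*, at 7.07 against 125 CPM on 2 and 22 UMIs. In the smooth muscle part led by *Tagln* it stood at 8.41 against 26.5 CPM (-1.65, -4.14 to 0.27). All 11 control UMIs there lay in 1 cell. The higher *Cd44* lay in the smooth muscle part, at 86.9 against 4.81 CPM on 31 and 2 UMIs. In epithelial-like cells *Icam1* stood at 29.3 CPM in 32 of 86 LIP cells and 4.90 CPM in 26 of 229 control cells (2.58, 1.98 to 3.21), and *Itgb2* at 4.62 and 1.15 CPM (2.0, 0.59 to 3.50), so 2 of 3 genes were past 2-fold higher (4.02% of genes) and none lower (2.61%, and 6.63% in either direction). The neutrophil markers given above were also higher there in LIP, and their part was not tested. *Cd44* in epithelial-like cells was nearly level, at 288 and 292 CPM (-0.02, -0.14 to 0.10).

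Osteogenic-like cells held the second largest share of *Vcam1*. *Vcam1* stood there at 33.8 CPM in LIP and 31.7 CPM in control, in 22 of 64 and 25 of 123 cells. *Cd44* was the 1 of 3 genes past 2-fold higher (5.17% of genes, 7.95% being lower and 13.1% either), at 121 against 44.9 CPM (1.43, 1.0 to 1.87). That ratio was 1.80 (1.19 to 2.43) in the part led by *Clec3b* and *Gsn* and 0.36 (-0.27 to 1.04) in the part led by the bone genes *Ibsp* and *Bglap*. The first part held 34 LIP and 103 control cells and the second 30 and 20. *Icam1* stood at 55.4 and 77.3 CPM over the class, and at 101 and 92.8 CPM within the first part. In Schwann-like cells *Cd44*, the only gene tested, stood at 90.8 and 63.2 CPM (0.52, -0.47 to 1.63) and was not past 2-fold, where 6.18% of genes were higher, 7.19% lower and 13.4% either. Lymphatic endothelial-like cells numbered 5 in LIP and 19 in control. *Icam1* there had 3 and 77 UMIs, of which 1 control cell held 61, and *Selp* had 19 UMIs in 2 LIP cells and 7 UMIs in 3 control cells.

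On the leukocyte side, *Selplg* encodes PSGL-1, the main ligand of P-selectin, which also binds E-selectin. *Selplg* (ENSMUSG00000048163, chr5:113818536-113832644) stood at 513 CPM (478 to 549) in LIP and 349 CPM (297 to 406) in control neutrophil-like cells, a log2 ratio of 0.56 (0.31 to 0.81). T-like cells stood at 517 and 441 CPM. The log2 ratio of T-like over neutrophil-like cells was 0.01 (-0.25 to 0.27) in LIP and 0.34 (0.02 to 0.66) in control. Macrophage-like cells were lower in LIP, at 228 against 319 CPM (-0.49, -0.75 to -0.22). In B-like cells it stood at 108 and 46.7 CPM on 10 and 41 UMIs (1.21, 0.05 to 2.23), which made it the 1 of 5 genes past 2-fold higher in that class (11.6% of genes), with none lower (3.72%, and 15.4% in either direction). LIP held 92335 UMIs of this class and control 877187, and counts under 3 UMIs were set to 3. At their control counts none of the 5 genes could have been called lower, so that part of the count carries no information. The B-like class held different sub-clusters in the 2 libraries, 1 of which had 143 control cells and no LIP cell, and within the other *Selplg* stood at 108 and 200 CPM (-0.88, -2.42 to 0.75).

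The integrin subunits differed between myeloid classes. *Itgal* (ENSMUSG00000030830, chr7:127296260-127335138) stood at 301 CPM in LIP and 192 CPM in control neutrophil-like cells (0.64, 0.32 to 0.98). *Itgam* (ENSMUSG00000030786, chr7:128062640-128118491) went the other way, at 424 and 573 CPM (-0.44, -0.64 to -0.23), as did *Itgb2* (ENSMUSG00000000290, chr10:77530252-77565708), at 434 and 522 CPM (-0.27, -0.48 to -0.05). *Itgam* shares its strand with an overlapping annotated gene, *Gm49368*, so its counts are uncertain to that extent. In macrophage-like cells *Itgam* stood at 280 and 148 CPM (0.92, 0.58 to 1.28) and *Itgb2* at 413 and 210 CPM (0.98, 0.69 to 1.28), both higher in LIP, and *Itgal* at 89.9 and 66.9 CPM (0.42, -0.10 to 0.98). The excess of neutrophil-like over macrophage-like cells in *Itgb2*, a log2 ratio of 1.32 (0.99 to 1.64) in control, was 0.07 (-0.09 to 0.23) in LIP. T-like cells held *Itgal* (208 and 145 CPM) and *Itgb2* (226 and 156 CPM), with intervals of the ratios that reached 0, and *Itgam* on 3 and 1 UMIs. B-like cells held no *Itgam* UMI in 19 and 151 cells.

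*Cd44* (ENSMUSG00000005087, chr2:102811141-102901665) encodes a receptor of hyaluronan that also serves as an E-selectin ligand when glycosylated. It stood at 1366 CPM (1310 to 1424) in LIP and 783 CPM (705 to 867) in control neutrophil-like cells (0.80, 0.64 to 0.97), and was found in 318 of 326 and 52 of 53 cells. After thinning the shares were 73.4% (68.1 to 78.2) and 47.2% (33.3 to 61.4). Macrophage-like cells stood at 800 and 516 CPM (0.63, 0.45 to 0.82), where 1 control cell held 65 of 293 UMIs. Without the top cells that ratio was 0.86 (0.65 to 1.07). T-like cells stood at 317 and 262 CPM and B-like cells at 54.2 and 35.3 CPM, with ratios whose intervals included 0.

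*Icam1* was the exception among neutrophil-like cells. It stood at 273 CPM (248 to 300) in 138 of 326 LIP cells and 42.8 CPM (26.1 to 66.1) in 10 of 53 control cells, a log2 ratio of 2.67 (2.03 to 3.40). It was the 1 of 7 genes tested past 2-fold higher there, where 11.5% of 5143 genes were, and none was lower (6.40% of genes, and 17.9% in either direction). Leaving out the top cell of each library gave 2.95 (2.23 to 3.77). The log2 ratio of vascular endothelial-like over neutrophil-like cells was -0.05 (-0.29 to 0.18) in LIP and 1.36 (0.55 to 2.22) in control. In macrophage-like cells *Icam1* stood at 240 and 247 CPM (-0.04, -0.32 to 0.25), and in T-like cells at 240 and 127 CPM (0.92, 0.36 to 1.49). With 15 dimensions the T-like cells split by library, into 51 control cells led by *Trbc1* and 27 LIP cells led by *Il17a* and *Trdc*, so the T-like ratios set 1 sub-cluster against the other. Of 7 genes tested in macrophage-like cells none was past 2-fold higher (10.5% of genes were), and 1, *Vcam1*, was lower (5.60%, and 16.1% in either direction), on 7 and 31 UMIs of which 1 control cell held 27. None of 5 genes was past 2-fold in T-like cells (10.4% of genes were higher, 8.19% lower and 18.6% either).

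**Figure D4:**
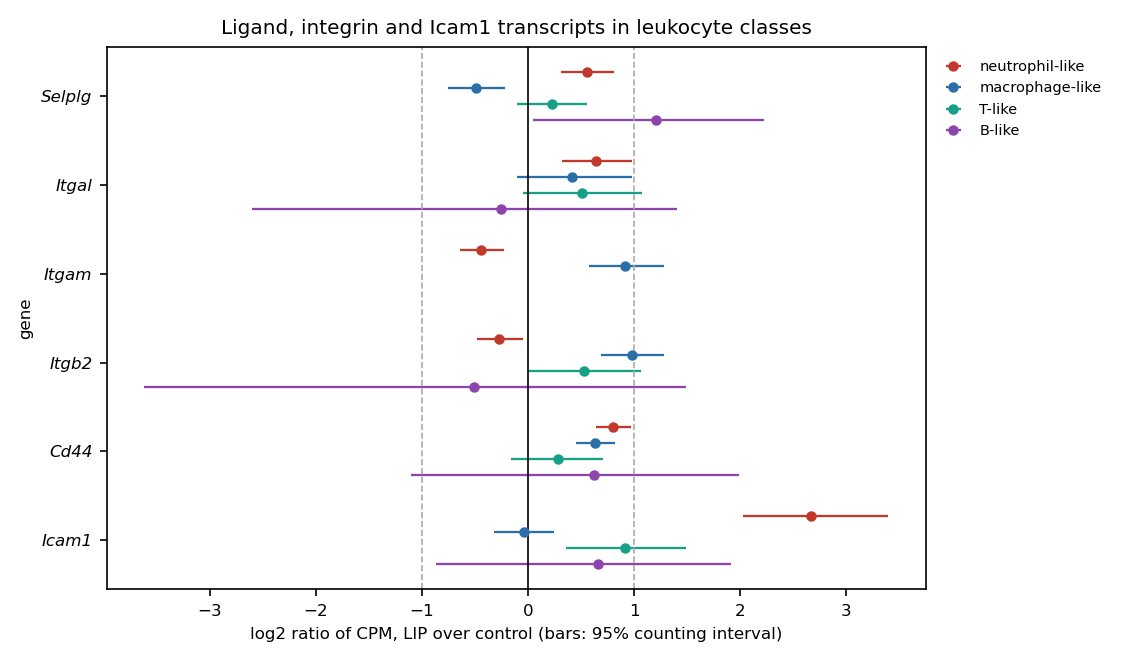
Log2 ratio of CPM, LIP over control (horizontal axis), of 5 leukocyte genes and *Icam1* (vertical axis) in 4 leukocyte classes (colours); points are ratios, bars 95% counting intervals, dashed lines 2-fold, and genes under 20 UMIs in a class are not drawn. *Itgam* and *Itgb2* lie below 0 in neutrophil-like and above 0 in macrophage-like cells, and *Icam1* in neutrophil-like cells, at 2.67, is the one point well past the 2-fold line.

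Neutrophil-like cells fell into 2 sub-clusters. One, led by *Acod1* and *Ccl3*, genes of activated myeloid cells, held 293 LIP and 36 control cells, and the other, led by *Ltf* and *Camp*, granule protein genes of less mature neutrophils, held 33 and 17. In LIP the first stood above the second for *Selplg* (706 against 110 CPM), *Itgal* (397 against 101 CPM), *Cd44* (1821 against 418 CPM) and *Icam1* (399 against 9.51 CPM), and below it for *Itgam* (317 against 646 CPM). *Itgb2* was closer, at 413 and 477 CPM. The same order was read in control, at 617 and 181 CPM for *Selplg* and 345 and 716 CPM for *Itgam*, except that *Itgb2* stood at 562 and 497 CPM.

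Within the *Acod1* and *Ccl3* sub-cluster the log2 ratio of LIP over control was 1.84 (1.20 to 2.57) for *Icam1*, 0.48 (0.06 to 0.93) for *Itgal*, 0.41 (0.22 to 0.60) for *Cd44* and -0.44 (-0.76 to -0.12) for *Itgb2*. The intervals of *Selplg* (0.19, -0.10 to 0.49) and *Itgam* (-0.12, -0.51 to 0.29) included 0. Within the *Ltf* and *Camp* sub-cluster *Selplg* was lower in LIP (-0.71, -1.28 to -0.14), and the other 4 leukocyte genes had intervals that included 0. The higher *Selplg* over all neutrophil-like cells of LIP was thus not past counting error in either sub-cluster, and *Selplg* was lower in the *Ltf* and *Camp* one. The lower *Itgam* was not past counting error in either. The proportions of the sub-clusters differed between libraries.

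**Figure D5:**
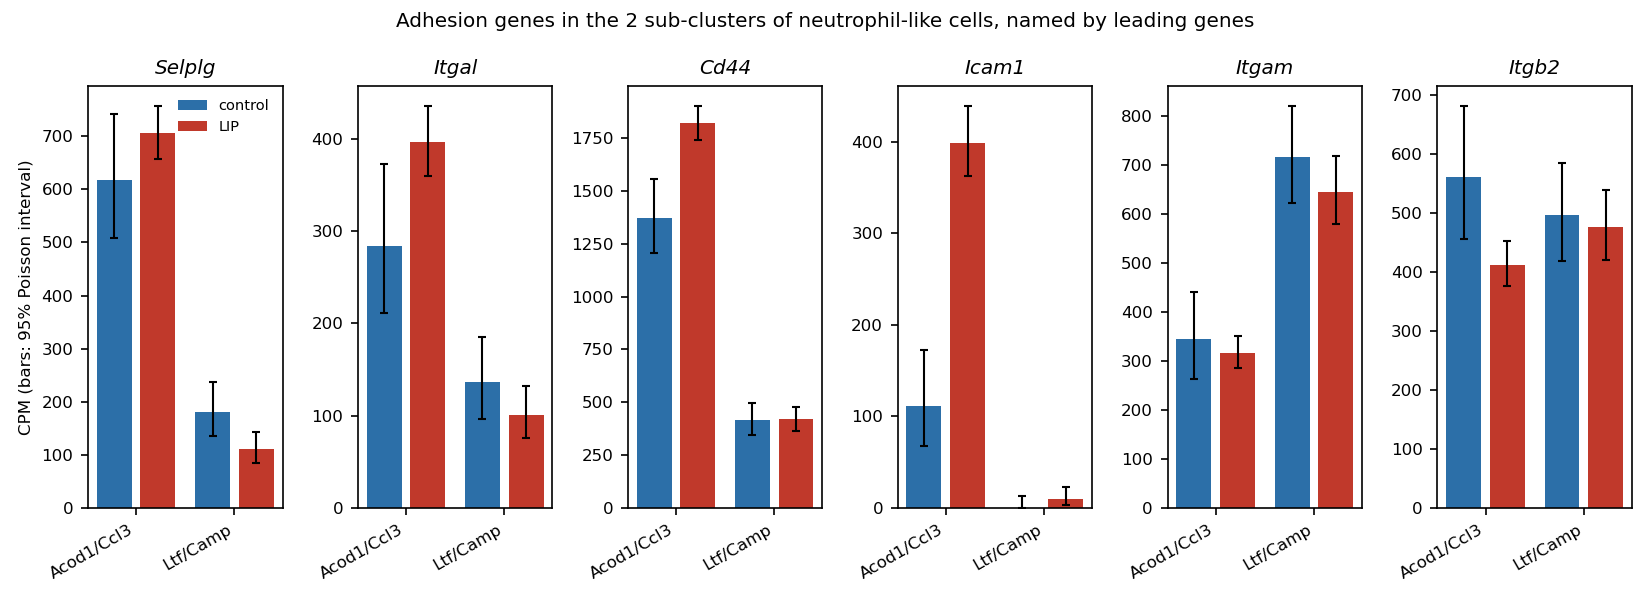
CPM (vertical axis, from 0, a scale for each gene) of 6 genes in the *Acod1*/*Ccl3* and *Ltf*/*Camp* sub-clusters of neutrophil-like cells; bars are control (blue) and LIP (red), with 95% Poisson intervals. *Selplg*, *Itgal*, *Cd44* and *Icam1* are higher in the first sub-cluster and *Itgam* in the second, in both libraries.

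Paired by molecule, the P-selectin axis joined *Selp* in 40 of 79 LIP endothelial cells to *Selplg* in 258 of 326 LIP neutrophil-like cells (79.1%), against 11 of 48 and 43 of 53 (81.1%) in control. The *Icam1* axis joined 47 of 79 endothelial cells to neutrophil-like cells of which 167 of 326 (51.2%) held both *Itgal* and *Itgb2* and 164 (50.3%) both *Itgam* and *Itgb2*. In control these were 37 (69.8%) and 39 (73.6%) of 53 cells, which were deeper, at a median of 6494 against 3855 UMIs. After thinning, *Itgal* and *Itgb2* were found together in 24 of 312 LIP cells (7.69%, 4.99 to 11.2) and 0 of 53 control cells, which allows up to 5.66%, and *Itgam* and *Itgb2* in 36 of 312 (11.5%) and 6 of 53 (11.3%). The higher unthinned shares of control were thus not found at equal depth. Unthinned, all 5 leukocyte genes were found in 113 LIP neutrophil-like cells (34.7%) and 30 LIP macrophage-like cells (39.5%). In control these were 28 (52.8%) and 11 (28.9%), and no T-like or B-like cell of either library held all 5. After thinning, 2 of 312 LIP neutrophil-like and 0 of 76 LIP macrophage-like cells held all 5, and 0 of 53 and 0 of 37 in control.

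The partner of VCAM-1 is VLA-4, made of *Itga4* and *Itgb1*. In neutrophil-like cells *Itga4* stood at 50.5 CPM in LIP and 21.4 CPM in control (1.24, 0.29 to 2.35) on 82 and 10 UMIs, and *Itgb1* at 33.9 and 6.42 CPM (2.40, 0.78 to 4.72) on 55 and 3 UMIs. Macrophage-like cells held more *Itga4*, at 97.9 and 130 CPM, and B-like cells the most, at 152 and 148 CPM. In T-like cells it stood at 29.1 and 74.0 CPM (-1.34, -2.69 to -0.17). Unthinned, *Itga4* was found in 16.9% of LIP and 17.0% of control neutrophil-like cells. The control cells were deeper, at a median of 6494 against 3855 UMIs, so these shares are not at equal depth.

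The counts that follow stand beside 11.5% of all genes higher and 6.40% lower in neutrophil-like cells, and 10.5% and 5.60% in macrophage-like cells. Among the other genes listed, neutrophil-like cells of LIP were past 2-fold higher for 2 of 5 genes of selectin ligand modification, the sialyltransferases *St3gal4* (1.15, 0.34 to 2.07) and *St3gal6* (2.02, 1.31 to 2.82), which cap selectin ligands. *St3gal4* had 108 and 14 UMIs and *St3gal6* 239 and 17, so both reached the minimum of 20 UMIs through LIP. Neutrophil-like cells of LIP were also higher for 4 of 5 other integrin subunits with at least 20 UMIs, *Itga4*, *Itgb1*, *Itgax* (2.20, 0.57 to 4.53) and *Itga5* (1.14, -0.09 to 2.66). In control these 4 had 10, 3, 3 and 6 UMIs, so they reached that minimum through LIP. LIP held 1622732 UMIs of this class and control 467556. *Itgb3*, also listed, was under the minimum with 7 and 8 UMIs and was lower (-1.99, -3.68 to -0.33). None of 10 integrin activation genes and none of 5 other selectin system genes was past 2-fold. Of 4 ligand genes, *Spp1*, which encodes osteopontin, stood at 630 against 47.1 CPM (3.74, 3.14 to 4.42) and *Fn1* had 21 UMIs against 0. Of 4 counter-receptor and junction genes *Alcam* was higher (1.29, 0.34 to 2.40) and *Mcam* (-2.60, -3.76 to -1.51) and *Cldn1* (-1.16, -2.47 to 0.23) were lower. *Alcam*, with 85 and 10 UMIs, and *Fn1* also reached the minimum through LIP. These values are over the whole neutrophil-like class. Its 2 sub-clusters differed in proportion between libraries, and their part in these values was not tested. In macrophage-like cells *Spp1*, *Fn1* and *Vcan* were higher among 4 ligand genes, *Itga5* and *Itga6* (1.40, -0.34 to 3.79) among 8 integrin subunits and *Tpst2*, a tyrosine sulfotransferase, among 5 genes of selectin ligand modification, where *St3gal6* was lower. Of the higher genes all except *Fn1* had fewer than 20 UMIs in control and reached the minimum through LIP. None of 10 activation and 5 selectin system genes was past 2-fold there, and of 4 junction genes *Cldn1* was lower.

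The genes closest in pattern to each of the 9 were found over 17 profiles, 1 for each class and library with at least 20 cells, by Pearson's r of log2(CPM + 10) over 13107 genes. They share libraries and depth and are given as a description. *Selp* was closest to the endothelial transcription factor genes *Erg* (0.983) and *Tal1* (0.978), *Sele* to *Dll4*, *Gpr182* and *Btnl9* (0.997 each), *Icam1* to *Lgals9* (0.842) and *Vcam1* to *Rab11fip5* (0.914). *Gpr182* was among the markers used to name lymphatic endothelial-like cells. That class had too few cells for a profile, and no *Sele* UMI was found in it. *Selplg* was closest to 2 genes of the same set, *Itgal* (0.977) and *Itgb2* (0.972). *Itgb2* was closest to *Pstpip1* (0.986), *Itgal* to *Gmfg* (0.979), *Itgam* to *Gm9733* (0.991) and *Cd44* to *Adam8* (0.919). The lowest of these values belonged to *Icam1*, *Vcam1* and *Cd44*.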

How the data were processed

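Cells came from gingiva and the alveolar bone surface. Per the labels the authors used 3′ droplet chemistry of 10x Genomics, version 3, and processed the reads with Cell Ranger on mm10. The deposited values are raw UMI counts per gene and barcode. Barcodes with 200 to 7500 genes, at most 60000 UMIs and at most 10% mitochondrial UMIs were kept. The 2 libraries held 14236327 (LIP) and 16472915 (control) UMIs, of which 10560109 and 13407122 were in kept cells. Seurat 5.3.0 (R 4.3.3) was used for integration and clustering, on 2000 variable features, from which the 9 genes were held out, with 30 dimensions and a resolution of 0.1. A sub-cluster was named from marker lists, and 97 LIP and 76 control cells stayed unnamed. Scrublet (scanpy 1.11.5) marked 5 kept cells, none of them in the vascular endothelial-like or leukocyte classes, and they stayed in. Sums, intervals and thinning used Python 3.11.15, numpy 2.4.6, pandas 2.3.3 and scipy 1.17.1, and plots matplotlib 3.10.9. The ratio and its interval were tested on simulated counts. With 1 library per group a gene with at least 20 UMIs over both libraries was counted when past 2-fold. A count of 0 allows up to 3 UMIs. To count genes past the fold and to take medians over genes, counts under 3 UMIs in a library were set to 3. Named genes were the 9 genes, *Itga4*, *Itgb1*, *Ackr1*, sub-cluster leading genes, listed genes past 2-fold with an interval that excludes 0 in vascular endothelial-like or neutrophil-like cells (at most 3 per list and direction), and the 3 genes nearest in pattern. *Nr2f2*, *Vwf*, *Sox17*, *Icam2*, *Kcne3*, *Angpt2*, *Itga5*, *Cldn1*, *Fn1*, *Itgb3* of neutrophil-like cells and the macrophage-like list genes were named after their values were seen. Gene positions are from GENCODE M21 and promoters from RefSeq. One listed gene is not reported here. The genes and lists were chosen with earlier results of these data known.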

Additional observations from a re-analysis of the deposited data

Results flagged for a closer look

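Some genes differed between libraries in opposite directions in different classes, with counting intervals that excluded 0 on both sides, as log2 ratios of LIP over control. *Icam1* stood at 2.67 in neutrophil-like and -2.84 in mural-like cells. *Selplg* stood at 1.21 in B-like and -0.49 in macrophage-like cells. Within the B-like sub-cluster that both libraries held, it stood at -0.88 (-2.42 to 0.75). *Itgb2* stood at 2.0 in epithelial-like cells, on 12 and 8 UMIs, and at -0.27 in neutrophil-like cells. Neutrophil markers in epithelial-like cells summed to 723 CPM in LIP, with *Ly6g* and *Mmp8* at 0, and 142 CPM in control, with *Ly6g* at 0. Whether that RNA came from neutrophils was not tested. *Itgam* stood at 0.92 in macrophage-like and -0.44 in neutrophil-like cells. Within the neutrophil-like sub-clusters *Itgam* stood at -0.12 (-0.51 to 0.29) in the *Acod1* and *Ccl3* one and -0.15 (-0.40 to 0.11) in the *Ltf* and *Camp* one. *Cd44* stood at 1.47 in mural-like and -1.33 in vascular endothelial-like cells, the latter on 13 UMIs in each library. These differences between classes were not tested.

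The barcodes left out by the limits on genes, UMIs and mitochondrial share, 276 in LIP and 286 in control, also carried the genes. *Selp* had 412 UMIs there in LIP and 7 in control (log2 ratio 5.62), *Sele* 25 and 1 (4.38), *Icam1* 89 and 22 (1.75) and *Selplg* 45 and 8 (2.23). *Vcam1* had 43 and 84 (-1.23, -1.79 to -0.68), and *Cd44* 463 and 432 (-0.16, -0.35 to 0.03). Of the 412 *Selp* UMIs, 393 lay in 4 of the 24 LIP barcodes above the upper limits on genes or UMIs, 245 of them in 1 barcode, and the 16 control barcodes of that kind held none.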

How the results depend on the processing

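No paired analysis was possible because each group was 1 library. For the 4 endothelial genes in vascular endothelial-like cells and the 5 leukocyte genes in neutrophil-like cells, 79 of 90 ratios under other settings moved by less than counting error and none changed direction. *Selp* in vascular endothelial-like cells (log2 ratio 1.58) was 2.27 without integration, 3.37 at a mitochondrial limit of 5% and 2.31 with cells weighted alike, and *Sele* (0.59) was 1.32, 3.09 and 1.57. Without the top cell of each library they were 3.20 and 2.85. Without integration *Icam1* was 0.41 and *Vcam1* -0.04, in a class of 149 cells that took in the lymphatic cells and shared 125 with the 127 of the report. *Cd44* in neutrophil-like cells was 0.53 with cells weighted alike. Splits were added after the data had been seen. In cells with *Ackr1* the ratios were 0.42 (*Selp*), -0.39 (*Sele*), 0.62 (*Icam1*) and -2.40 (*Vcam1*), and in cells without it 3.12 (*Selp*) and 0.40 (*Vcam1*). In the *Acod1* and *Ccl3* neutrophil sub-cluster they were 0.19 (*Selplg*), -0.12 (*Itgam*) and 0.41 (*Cd44*), and in the *Ltf* and *Camp* one -0.71 (*Selplg*), -0.15 (*Itgam*), -0.43 (*Itgal*) and 0.02 (*Cd44*). Without the control cell with most *Selp*, the ratio of *Sele* in control cells with over without *Ackr1* was -0.18. The cause was not tested.

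Counts of genes past the fold followed the threshold. With at least 50 UMIs, 216 genes were higher and 126 lower in vascular endothelial-like cells, 99 lower in neutrophil-like cells, and 411 higher and 161 lower in macrophage-like cells. With at least 10 UMIs, 648, 594 and 871 were higher and 689, 613 and 724 lower in these classes. Lower genes then outnumbered higher ones in vascular endothelial-like and neutrophil-like cells, unlike at 20 UMIs, but that carries no information on direction. LIP held more UMIs of both classes (868412 against 345104 and 1622732 against 467556), and low control counts were set to the floor. A neutrophil-like gene under 20 UMIs thus could not be called higher. In vascular endothelial-like cells only such genes close to 20 UMIs could be. The higher count of neutrophil-like cells stayed at 594, while the lower one rose from 329. At 1.5-fold, 1344, 1141 and 1667 were higher and 1078, 964 and 1089 lower. Without integration no T-like or B-like cells of LIP and no macrophage-like cells of control remained, so no ratio was obtained for these classes. With 1 library per group the spread between mice is unknown.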
